A study of Rattus norvegicus with 77 samples.

Results

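Sperm RNA from rats that had recovered from 2,5-hexanedione (HD) was compared with that from rats that had recovered from water. The comparison used 38 of the 77 arrays of the series, 20 labelled HD-recovery and 18 labelled water-recovery, chosen by their treatment and recovery labels alone. Each array held the RNA of 1 adult male Fischer 344 rat, an inbred strain. HD-recovery rats drank 0.33% HD for 3 months and control water for a further 3 months, and water-recovery rats drank water throughout. The remaining arrays, 19 labelled HD and 20 labelled water, came from rats killed when the 3-month exposure ended. The sperm were taken from the cauda epididymides and passed through an ammonium chloride buffer that lyses other cells. Of the 29214 probe sets on the array, 15310 carried 1 gene symbol (14506 genes), and these are the ones named.

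HD is the metabolite of n-hexane that alters the microtubules of Sertoli cells, which nurse developing germ cells. A mature sperm makes hardly any new RNA, and what it carries was transcribed earlier, largely in round spermatids. Spermatids then replace their histones with transition proteins and protamines and build the acrosome, the axoneme and the fibrous sheath of the tail. The recovery groups address whether the sperm RNA of exposed rats still differed once these cells had been made without HD.

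The arrays carried transcripts of sperm and of other cells. The tail gene Odf1 had a log2 value of 13.99 ± 0.19 (SD, n = 20) in HD-recovery arrays and 14.02 ± 0.10 (SD, n = 18) in water-recovery arrays, and protamine Prm1 had 12.95 ± 0.39 and 12.89 ± 0.23. Cd52 of leukocytes and epididymis had 11.53 ± 0.73 and 11.50 ± 0.54, and the haemoglobin gene Hbb had 11.31 ± 0.97 and 11.57 ± 0.81. The mean of 49 leukocyte and macrophage genes ran from 6.99 to 7.93 over HD-recovery arrays and from 7.05 to 8.00 over water-recovery arrays. That of 21 fibroblast genes ran from 7.20 to 7.57 and from 7.31 to 7.83, and that of 10 Leydig cell genes from 6.12 to 6.44 and from 6.04 to 6.43. The Leydig cell means lay below the lowest array medians, 6.66 and 6.61, so they do not show RNA of Leydig cells. In RNA of mixed cells, fewer cells of a type and less RNA per cell cannot be told apart.

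Arrays of the same group differed widely. With each group centred on its mean, the first principal component held 40.0% of the variance between arrays. Its score was 2.0 ± 27.6 (SD, n = 20) in HD-recovery arrays and −2.2 ± 24.7 (SD, n = 18) in water-recovery arrays (permutation test, two-sided, p = 0.62, adjusted p = 0.66 over 4 array measures, the others being the median value, the SD and the median correlation with the group). Replicates numbered 11 to 20 scored higher than those numbered 1 to 10 in both groups, with means of 17.5 and −13.6 in HD-recovery arrays and 10.0 and −14.4 in water-recovery arrays. Between these number ranges 15572 probe sets differed at q under 0.05 (limma, 53.3%), and the labels do not say what the numbers stand for. By a rule on the correlation with the rest of the group, 5 arrays stood apart: HD-recovery replicates 2, 9 and 16, with scores of −45.7, −48.9 and −33.4, and water-recovery replicates 12 and 15, with 61.9 and 37.3. All 38 arrays were kept, and the counts, the gene lists and the genes with the largest differences are also given without these 5.

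**Figure D1:**
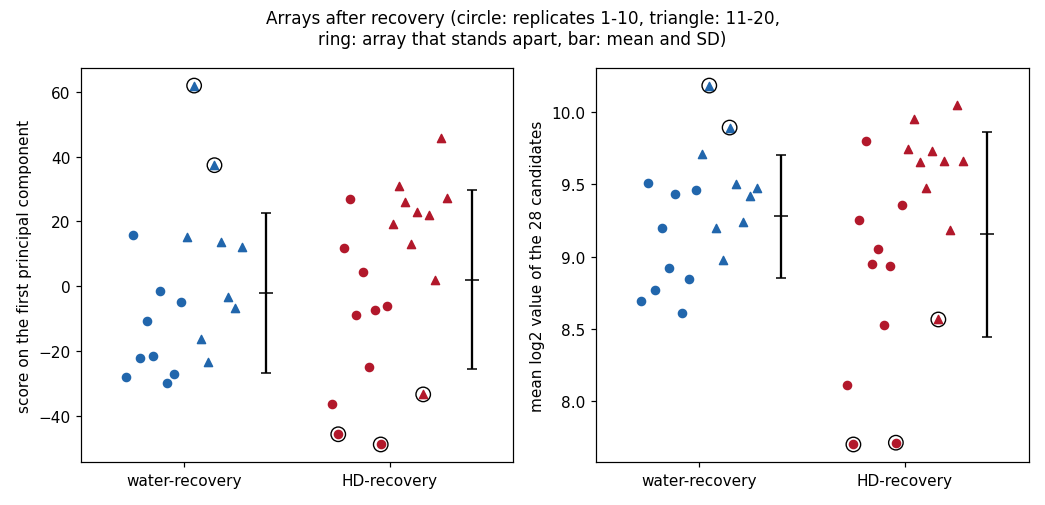
Score of each array on the first principal component of the 38 arrays (left) and mean log2 value of the 28 candidate transcripts on each array (right), by group; circles are replicates 1 to 10, triangles 11 to 20, rings the arrays that stand apart, and bars the mean and SD of 20 HD-recovery and 18 water-recovery arrays. The 3 ringed HD-recovery arrays are among the lowest and the 2 ringed water-recovery arrays among the highest on both measures.

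No probe set passed the test after recovery. Limma found 0 of 29214 probe sets (0%) and 0 of the 15310 with 1 gene symbol (0%) at q under 0.05, where q is Storey's false discovery rate, and the smallest q was 0.72. Benjamini-Hochberg adjustment also gave 0. At an unadjusted p under 0.05, 583 probe sets with 1 gene symbol had a higher mean in HD-recovery arrays (3.81%) and 197 a lower mean (1.29%). Over all probe sets the counts were 836 higher (2.86%) and 482 lower (1.65%). Differences below are log2 values of arrays labelled HD-recovery minus those labelled water-recovery. Signs follow the labels. For the 3-month groups the labels give signs opposite to those the study states for the transcripts it lists, and for the recovery arrays the study states none.

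For most probe sets, dim ones included, the interval of the difference was narrow. The standard error of the difference had a median of 0.06, and the 95% interval lay inside a 1.5-fold change in either direction for 28929 probe sets (99.0%). For 11 probe sets the interval reached a 2-fold change. Differences ran from −0.68 to 0.83, and 9 probe sets differed by more than 1.5-fold, 5 of them with 1 gene symbol. None of the 9 passed at q under 0.05, so a change of that size could be missed. The mean log2 value over all probe sets was 6.71, under the value of 7 used to filter dim ones. No background level was set, so a narrow interval of a dim probe set need not bound a change in RNA. For the 28 brighter candidate transcripts described below, with a mean of 9.06, the median standard error was 0.20. Their interval lay inside a 1.5-fold change for 20 of the 28 (71.4%).

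The 5 probe sets with 1 gene symbol that differed by more than 1.5-fold were those of Spata19, Tnp1, Ms4a14, Yipf6 and Akap4, all higher in HD-recovery arrays. Spata19, which encodes a protein of the sperm mitochondrial sheath, ran from 7.56 to 10.56 with a median of 9.16 in HD-recovery arrays, and from 7.29 to 8.97 with a median of 8.04 in water-recovery arrays. The groups overlapped, but 16 of 20 HD-recovery arrays lay above the water-recovery median. The difference was 0.83 (SE 0.23, 1.78-fold, unadjusted p = 0.00091, q = 0.72, limma). Tnp1, the transition protein that takes the place of histones before the protamines, ran from 9.40 to 11.60 with a median of 10.63, against 8.67 to 10.87 with a median of 9.74. Its difference was 0.74 (SE 0.21, 1.67-fold, unadjusted p = 0.0013, q = 0.72), again with 16 of 20 HD-recovery arrays above the water-recovery median. Akap4, the main scaffold of the fibrous sheath, had a difference of 0.60 (SE 0.19), with 15 of 20 arrays above that median. Ms4a14 had 0.71 (SE 0.22) and Yipf6, a Golgi membrane protein, 0.61 (SE 0.16). Both within replicates 1 to 10 and within 11 to 20 these differences were positive: 0.56 and 1.09 for Spata19, 0.52 and 0.96 for Tnp1, and 0.38 and 0.81 for Akap4. The ranges are parts of the arrays on which these genes were chosen, so the shared sign is a description and not a separate test.

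The stretch before the start site is shown for the pair of named genes with the largest differences, from RefSeq on build GRCr8. It covers the 250 bases upstream of Tnp1 on chr9:82044279-82044528 (minus strand) and of Spata19 on chr8:34073102-34073351 (plus strand). Capitals mark TGACGTCA, the palindromic cAMP response element read alike on both strands, to which CREM, an activator of spermatid genes, is known to bind.
Tnp1: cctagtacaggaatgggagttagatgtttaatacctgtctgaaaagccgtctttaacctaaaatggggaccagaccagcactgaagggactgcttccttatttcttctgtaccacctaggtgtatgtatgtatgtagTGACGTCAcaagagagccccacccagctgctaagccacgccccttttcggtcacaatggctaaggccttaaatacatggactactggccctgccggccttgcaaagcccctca
Spata19: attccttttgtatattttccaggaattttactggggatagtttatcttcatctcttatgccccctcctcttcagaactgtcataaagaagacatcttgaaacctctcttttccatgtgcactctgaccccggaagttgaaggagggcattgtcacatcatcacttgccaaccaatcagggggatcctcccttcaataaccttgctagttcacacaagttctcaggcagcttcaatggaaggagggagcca
Tnp1 held 1 copy, whose first base lay 113 bases before the start, and Spata19 held none in this stretch. TGACGTCA was in 531 of 33469 promoters in the table (1.59%). Among measured genes with a promoter there, it was in 279 of 11968 (2.33%), in 15 of the 480 matched genes that were higher at an unadjusted p under 0.05 (3.12%) and in 5 of the 152 that were lower (3.29%), so neither share stood far from that of all measured genes.

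**Figure D2:**
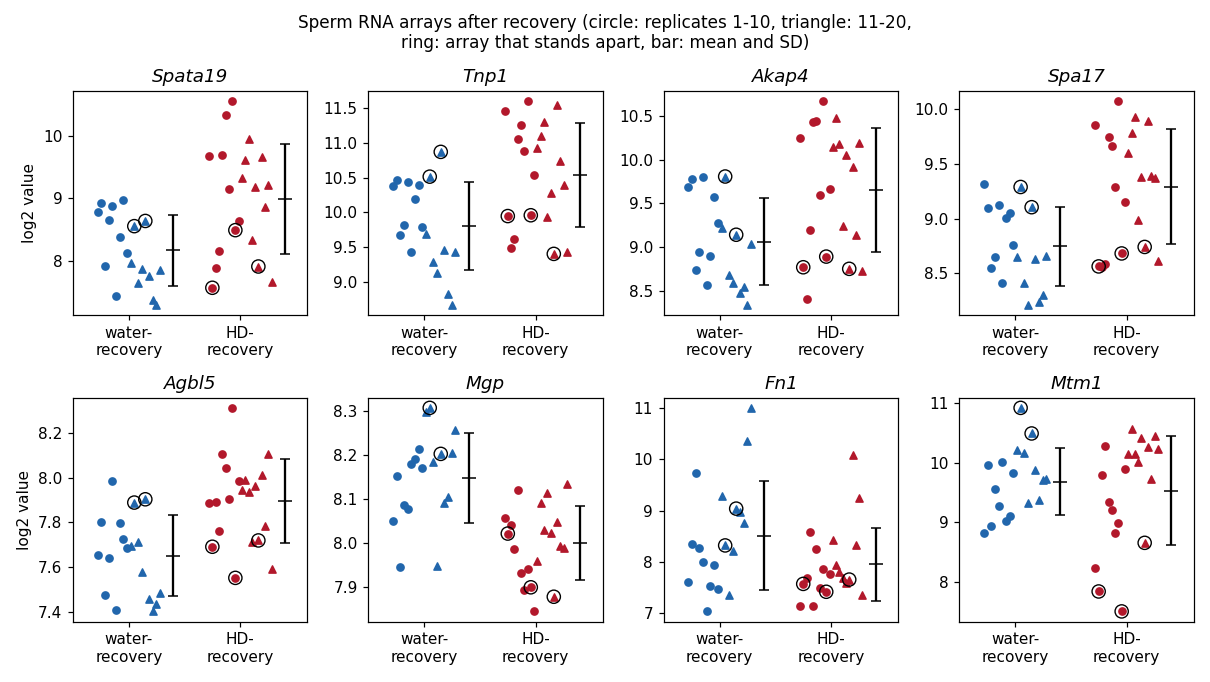
Log2 values of 8 genes on each array (y axis) by group (x axis); circles are replicates 1 to 10, triangles 11 to 20, rings arrays that stand apart, and bars the mean and SD of 18 water-recovery and 20 HD-recovery arrays. Spata19, Tnp1, Akap4, Spa17 and Agbl5 reach higher in HD-recovery arrays, Mgp lies lower, Fn1 has single high arrays in both groups, and Mtm1 overlaps throughout apart from its lowest HD-recovery arrays.

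The smallest p-values among higher genes were at modest differences. Agbl5, a carboxypeptidase that trims glutamate chains from tubulin, ran from 7.55 to 8.31 with a median of 7.92 in HD-recovery arrays and from 7.40 to 7.98 with a median of 7.67 in water-recovery arrays. In 18 of 20 HD-recovery arrays it lay above the water-recovery median, with a difference of 0.24 (SE 0.06, unadjusted p = 0.00021, q = 0.72). Spa17, which docks on the fibrous sheath, ran from 8.56 to 10.07 against 8.21 to 9.31, a difference of 0.55 (SE 0.14). Fxr1, an RNA-binding relative of the fragile X protein, had 0.44 (SE 0.11) on the probe set that led and 0.00 on its other probe set, so its probe sets disagreed. Dnajc4, a co-chaperone, had 0.20, Msi1, an RNA-binding protein, 0.17, Rai14, an actin-binding protein, 0.32, and the peptidase Ky 0.29. Vdac1, the channel of the outer mitochondrial membrane, had 0.12 to 0.18 on 3 probe sets, and the poly(A)-binding protein Pabpc2 had 0.39. On the probe sets that led, each of these genes was positive within both ranges of replicate numbers. They were chosen on the arrays of both ranges together, which favours a shared sign, so this is a description.

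Among lower genes the differences were smaller still. Mgp, a matrix protein that inhibits calcification, ran from 7.84 to 8.13 with a median of 8.01 in HD-recovery arrays and from 7.94 to 8.31 with a median of 8.17 in water-recovery arrays. None of the 20 HD-recovery arrays lay above the water-recovery median. The difference was −0.15 (SE 0.03, 1.11-fold, unadjusted p = 0.00012, q = 0.72), the smallest unadjusted p of the genes named. Within replicates 1 to 10 and 11 to 20, parts of the arrays on which Mgp was chosen, it was −0.14 and −0.15. Fxyd1, a regulator of the sodium pump, had −0.20 (SE 0.05). The lymphocyte receptors Cd72 and Cd6 had −0.17 and −0.14, the interferon regulator Irf7 −0.15 and the clock gene Per2 −0.11. Sowahd, Tbc1d8b, Hs3st1 and Osr1 lay between −0.20 and −0.12. The named genes with the largest negative differences varied widely between arrays. Fn1 (fibronectin) ran from 7.15 to 10.08 with a median of 7.74 in HD-recovery arrays and from 7.04 to 11.00 with a median of 8.30 in water-recovery arrays, a difference of −0.56 (SE 0.28, unadjusted p = 0.0496). Prg4 (lubricin) had −0.54 (SE 0.26), Dcn (decorin) −0.44 (SE 0.23), the mRNA decay factor Zfp36 −0.36 (SE 0.21) and the protease inhibitor Slpi −0.36 (SE 0.19).

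Lists of genes with a shared role are described by their counts and medians, beside the 15310 probe sets with 1 gene symbol, of which 3.81% were higher and 1.29% lower at an unadjusted p under 0.05, 51.0% had a positive difference and the median difference was 0.00. With all arrays no member of any list passed at q under 0.05, and without the 5 arrays that stood apart many did, as given at the end of each paragraph. In that setting 1432 of the 15310 were higher and 794 lower at q under 0.05, and their median difference was −0.02. Those 5 arrays had low scores on the first component in HD-recovery and high scores in water-recovery. Leaving them out therefore by itself raises the difference of genes that load positively on that component. Calls in that setting cannot be told apart from this shift. Among genes of spermatid chromatin, 4 of 13 measured members were higher at an unadjusted p under 0.05 and none lower, with a median difference of 0.08. They were Spata19, which the list holds although its protein belongs to the mitochondrial sheath, Tnp1, protamine Prm2 (0.41, SE 0.16) and Hspa2, a spermatid chaperone (0.19, SE 0.09), whereas Prm1 had 0.06. In the fibrous sheath and outer dense fibres, 5 of 13 were higher and none lower, with a median of 0.09, including Akap3 (0.24, SE 0.07) and Odf4 (0.25, SE 0.08). Odf1, which forms the outer dense fibres, had −0.03. Of the Spata and Tex families, named for their expression in testis, 10 of 31 were higher and none lower (median 0.09), with Spata32 at 0.48 and Tex36 at 0.30, and Spata19 was counted here again. Without the 5 arrays 6 of 13 spermatid chromatin genes were higher at q under 0.05 (median 0.23), 6 of 13 of the fibrous sheath and outer dense fibres (median 0.27) and 14 of 31 of the Spata and Tex families (median 0.20), with none lower.

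Genes of the acrosome, the axoneme and the microtubules had smaller medians. Of 20 acrosome and egg-binding genes, 4 were higher and none lower (median 0.03): Adam5 (0.41) and Adam3a (0.36), membrane proteins of the sperm head, Crisp2 (0.40), a protein of acrosome and tail, and Acr (0.19), the acrosomal protease. Of 35 axoneme and dynein arm genes, 3 were higher, among them the assembly factor Dnaaf1 (0.31). Of 28 genes of intraflagellar transport and centrioles 4 were higher, with Cetn2 at 0.17. Tubulins and the enzymes that modify them, which bear on the known target of HD, had 5 higher and 2 lower of 37, with a median of 0.03. Stmn1, which destabilizes microtubules, had 0.14 (SE 0.05) and its relative Stmn3 −0.11 (SE 0.05). Of 12 sperm ion channels and pumps 2 were higher, the sperm sodium pump Atp1a4 (0.33) and the soluble adenylyl cyclase Adcy10 (0.14). When the 5 arrays were left out, 6 acrosome genes (median 0.09), 2 axoneme genes (median 0.07), 5 of intraflagellar transport (median 0.09) and 4 ion channels and pumps (median 0.05) were higher at q under 0.05, and 9 tubulin genes were higher and 2 lower (median 0.06).

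Genes that supply energy and turn over RNA and protein showed small differences, mostly positive. Of 25 glycolytic genes 6 were higher and none lower (median 0.08), with the sperm-specific Gapdhs at 0.38 (SE 0.16), Ldhb at 0.36 (SE 0.14) and Gapdh at 0.09 (SE 0.04). Oxidative phosphorylation had 63 of 73 positive (86.3%) and 5 higher (median 0.10), with Uqcrb at 0.29. Cytosolic ribosomal proteins had 63 of 71 positive (88.7%) and 3 higher (median 0.08), with Rps26 at 0.13. Of 37 proteasome genes, 34 were positive (91.9%) and 5 higher (median 0.05), with the ATPase subunit Psmc2 at 0.23. Of 64 ubiquitin-conjugating enzymes and deubiquitinases, 8 were higher, with Ube2j1, an enzyme of the endoplasmic reticulum needed by spermatids, at 0.47 (SE 0.14). Of 80 heat shock and chaperone genes 10 were higher and 1 lower (median 0.03), with Dnajb7 at 0.41 and Bag6 at 0.28. Of 26 regulators of spermatid transcription and translation 5 were higher (median 0.04), with the spermatid helicase Ddx25 at 0.20 and Paip2, a translational repressor, at 0.30. Of 35 antioxidant enzymes 3 were higher, with Gpx2 at 0.19. Without the 5 arrays 42 of 73 oxidative phosphorylation genes were higher at q under 0.05 (median 0.24), 28 of 71 ribosomal proteins (median 0.19), 11 of 25 glycolytic genes (median 0.19), 12 of 37 proteasome genes (median 0.12) and 8 of 26 regulators of spermatid transcription and translation (median 0.15), with none lower. Ubiquitin enzymes then had 15 higher and 1 lower (median 0.09), chaperones 17 and 2 (median 0.10) and antioxidant enzymes 11 and 1 (median 0.14). On the first component 66 of 73 oxidative phosphorylation genes and 55 of 71 ribosomal proteins loaded positively, against 40.9% of probe sets with 1 gene symbol. In all 5 settings with calls compared below, 1 of the 73 and 0 of the 71 were called. Genes of these lists share arrays and vary together, so the members of a list are not separate observations.

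Lists of earlier germ cells and of other cells had at most 3 members past that unadjusted threshold with all arrays, and their medians ran from −0.06 to 0.07. Of 27 meiosis and piRNA genes only Mael (0.37) was higher, and of 13 spermatogonial genes only Uchl1 (0.15), and neither list had a lower member. No Sertoli cell gene of 19 and no Leydig cell gene of 10 reached an unadjusted p under 0.05, with medians of −0.04 and −0.03. Of 20 genes of the junctions between Sertoli and germ cells, Ocln (occludin) was lower (−0.12, SE 0.05) and Nectin3 higher (0.21, SE 0.09). None of 49 leukocyte and macrophage genes reached an unadjusted p under 0.05, yet 6 were positive (12.2%) and the median was −0.06, with Cd68 of macrophages at −0.16 (SE 0.08). Fibroblast and connective tissue genes had 3 of 21 lower (Mgp, Ogn at −0.22 and Fn1) and 1 positive, with a median of −0.05. Smooth muscle and endothelium had 2 of 15 lower, with Des (desmin) at −0.14 (SE 0.05). Of 33 epididymal epithelium genes 1 was higher, Cst8 (0.32, SE 0.12), and the median was 0.07. Of 10 red cell genes 1 was higher, Hemgn (0.18), while Hbb had −0.26 (SE 0.28). Of 34 apoptosis genes none passed and 8 were positive (23.5%, median −0.04), and of 30 cell cycle genes 2 were higher (median 0.01). The part of other cells in the spermatid differences was not tested. Most of these lists moved away from 0 when the 5 arrays were left out. At q under 0.05 there were then 4 lower fibroblast genes (median −0.10), 2 lower Leydig cell genes (median −0.10), 2 lower smooth muscle and endothelial genes (median −0.08), 1 lower Sertoli cell gene (median −0.07) and 4 higher epididymal genes (median 0.10), while no leukocyte gene passed (median 0.00) and the red cell list had 1 higher (median 0.02). Spermatogonial genes had 1 higher (median −0.06), meiosis and piRNA genes 1 higher (median 0.02) and junction genes 1 higher (median 0.03), while apoptosis genes had 1 higher (median −0.01) and cell cycle genes 2 higher (median 0.00).

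**Figure D3:**
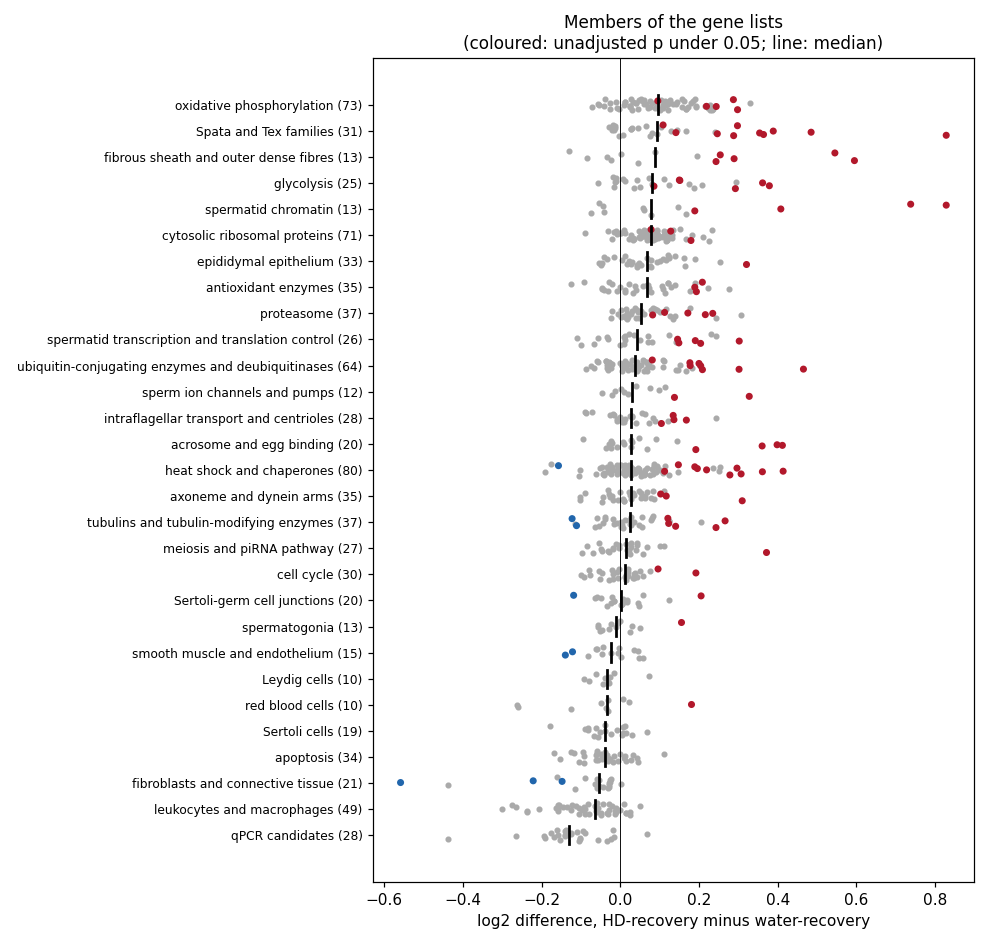
Log2 difference of each list member (x axis, HD-recovery minus water-recovery) by gene list (y axis, number measured in parentheses); black lines are medians, coloured points have an unadjusted p under 0.05 (red higher, blue lower) and none passes at q under 0.05 with all 38 arrays. Spermatid and sperm tail lists reach furthest to the right, with Spata19 at 0.83 and Tnp1 at 0.74, and the candidate and leukocyte lists have the lowest medians, −0.13 and −0.06.

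The count of altered probe sets depended on the arrays kept. It was 0 when any 1 of the 38 arrays was left out, and 3834 without the 5 that stood apart (13.1%), 1912 higher and 1922 lower. Without the 3 HD-recovery arrays alone it was 279, and without the 2 water-recovery arrays alone it was 0. It was 527 with array weights, 952 with each array's leukocyte mean as a covariate, and 0 with the first principal component or the replicate numbers as a covariate. Without the 5 arrays the mean scores on the first component were 9.9 ± 21.4 (SD, n = 17) and −8.7 ± 16.3 (SD, n = 16) (permutation test, two-sided, p = 0.0095, adjusted over 4 measures p = 0.013). The arrays left out had low scores in HD-recovery and high scores in water-recovery, so their removal alone moves these means apart. The permutation test does not allow for that choice, and the counts without these arrays carry the same shift. Without the 5 arrays and with the first component as a covariate the count was 385. In 5 of the settings that gave calls, which share most of their arrays, 163 probe sets were called in all 5, 153 higher and 10 lower. The fit without the 5 arrays and with the replicate number ranges as a covariate gave 2805 calls and was not among these settings. The 163 were 30.9% of the calls with array weights and 4.25% of those without the 5 arrays. Among them were Spata19, Tnp1, Akap4, Spa17, Agbl5, Ddx25, Crisp2, Paip2, Ldhb and Ube2j1 on the higher side and Mgp on the lower side. Without the 5 arrays Spata19 had 1.06 (SE 0.23), Tnp1 0.99 (SE 0.21), Akap4 0.80 (SE 0.19) and Spa17 0.71 (SE 0.14), while Mgp had −0.12 (SE 0.04) and Fn1 −0.47 (SE 0.31).

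The genes of the recovery contrast were then read in the 3-month arrays, which share no array with it. At an unadjusted p under 0.05, 570 of the 15310 probe sets were higher in HD than in water arrays (3.72%) and 922 lower (6.02%). Of the 583 that were higher after recovery, 505 were also positive at 3 months (86.6%, against 55.5% of all), and 208 were higher at an unadjusted p under 0.05 (35.7%). Of the 197 that were lower, 132 were negative at 3 months (67.0%, against 44.5% of all) and 27 lower (13.7%). Across the 15310 probe sets the pair of differences had a Pearson r of 0.32, a description over genes that vary together. These values rest on the 3-month labels: with the sign of the 3-month difference turned, 13.4% of the 583 would be positive, 33.0% of the 197 negative, and r −0.32.

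By the labels, the genes with the largest recovery differences had 3-month differences of the same sign, and with the 3-month sign turned they would be opposite. Spata19 had 0.83 (SE 0.30, unadjusted p = 0.0092) at 3 months, Tnp1 0.69 (SE 0.27, unadjusted p = 0.012), Ms4a14 0.82 (SE 0.27), Akap4 0.78 (SE 0.24), Spa17 0.60 (SE 0.21) and Yipf6 0.56 (SE 0.21). With all arrays none of these passed at q under 0.05 at 3 months. All 10 of the higher genes with the smallest p were positive at 3 months, and 7 of the 10 had an unadjusted p under 0.05. All 10 of the lower ones were negative, and 4 had an unadjusted p under 0.05, including Mgp at −0.17 (SE 0.05, unadjusted p = 0.0016). The same rule set apart 4 HD arrays and 1 water array. Without the arrays that stood apart in all groups, the 3-month values were 0.73 for Spata19, 0.68 for Tnp1, 0.70 for Akap4, 0.54 for Spa17, 0.78 for Ms4a14, 0.46 for Yipf6 and −0.13 for Mgp. All of these then passed in limma, with q from 0.019 for Mgp to 0.046 for Yipf6. Their unadjusted limma p-values were nevertheless larger than with all arrays, such as 0.014 against 0.0092 for Spata19. In that fit 17.3% of the 15310 probe sets were higher and 18.9% lower at an unadjusted p under 0.05. The shares over many genes did not hold in that setting. Of the same 583 probe sets 367 were then positive at 3 months (63.0%, against 57.4% of all). When the recovery contrast was also refitted without those arrays, 23.7% of its 2236 higher probe sets were positive at 3 months, and the r over genes was −0.49. With the 3-month sign turned these would be 76.3% and 0.49.

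**Figure D4:**
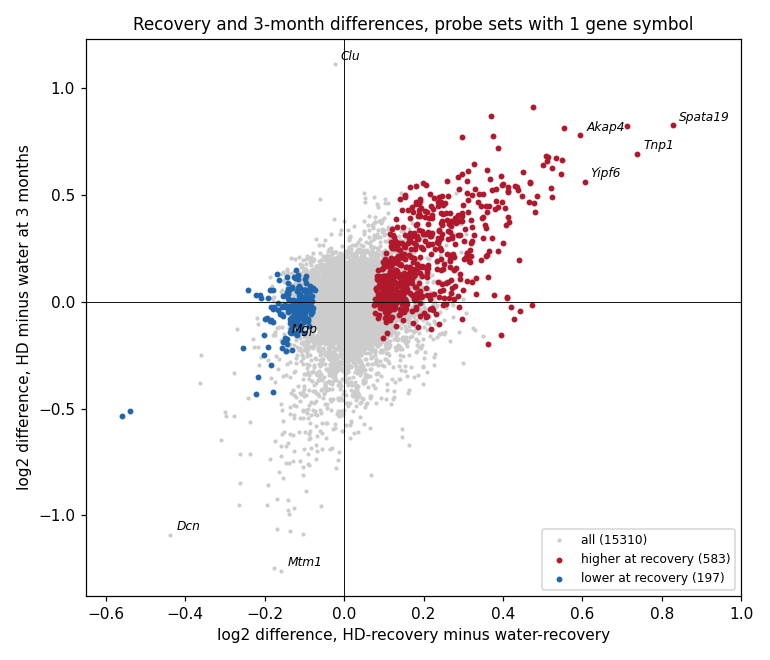
Log2 difference of HD and water arrays at 3 months (y axis) against that of HD-recovery and water-recovery arrays (x axis) for 15310 probe sets with 1 gene symbol, all arrays; red and blue points have an unadjusted p under 0.05 after recovery, 583 higher and 197 lower. Spata19, Tnp1, Akap4 and Yipf6 lie high on both axes, while Clu and Mtm1 lie far from 0 only on the y axis.

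The transcripts altered at 3 months were near 0 after recovery. At 3 months 138 probe sets passed at q under 0.05 (0.472%), 133 lower and 5 higher in HD arrays, with a median difference of −0.51. In the recovery arrays their median was −0.06 and their range −0.44 to 0.14, and 0 of the 138 passed at q under 0.05, while 1 was higher and 1 lower at an unadjusted p under 0.05. All 138 were closer to 0 than at 3 months, and for 131 the 95% recovery interval did not reach the 3-month value (138 with its sign turned), which the choice of these probe sets on the 3-month arrays makes large. The difference was negative in 111 of them, and in 10 without the 5 arrays that stood apart, where the median was 0.13 and 1 passed. Within replicates 1 to 10 the median was −0.15 and within 11 to 20 it was 0.05.

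The study followed 29 candidate transcripts by quantitative PCR, and 28 were matched here. In other rats it reported 8 of the 29 as still altered by that method after 3 months of recovery, against unexposed rats killed at the start. What follows is from the arrays alone. None of the 28 passed after recovery, the smallest unadjusted p being 0.063 for Dcn, and all 28 intervals held 0 and left out the 3-month value, with its sign as labelled or turned. Clu (clusterin, a secreted chaperone that Sertoli cells make) ran from 6.80 to 7.95 with a median of 7.01 in HD-recovery arrays and from 6.74 to 7.38 with a median of 7.02 in water-recovery arrays. The groups overlapped apart from HD-recovery replicate 19 at 7.95, with a difference of −0.02 (95% interval −0.16 to 0.11) against 1.11 at 3 months. Mtm1, a lipid phosphatase, ran from 7.52 to 10.56 with a median of 9.84, against 8.83 to 10.91 with a median of 9.72. Its difference was −0.16 (95% interval −0.63 to 0.32), against −1.26 at 3 months. Sil1, an exchange factor for the chaperone BiP, had −0.18 against −1.25, Dnaaf11, a dynein assembly factor, −0.10 against −1.08, and Gas2, a cytoskeletal protein, −0.17 against −1.07. The intervals for 20 of the 28 lay inside a 1.5-fold change, so for the other 8 a 1.5-fold change was within what the arrays allow.

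The candidates varied together and more widely in HD-recovery arrays. Their median difference was −0.13, and 27 of 28 were negative, Ptgds being positive at 0.07. The SD was larger in HD-recovery arrays for 27 of the 28, with a median of 0.79 against 0.46, while 55.1% of all probe sets had the larger SD there. Without the 5 arrays the medians were 0.56 and 0.38, and 26 were larger. The mean of the 28 ran from 7.70 to 10.05 with a median of 9.31 in HD-recovery arrays and from 8.61 to 10.18 with a median of 9.33 in water-recovery arrays. The 5 lowest arrays, HD-recovery replicates 2, 9, 1, 7 and 16 at 7.70, 7.71, 8.11, 8.53 and 8.57, lay below every water-recovery array, and the medians were alike. All 28 loaded positively on the first component, as did 31.7% of all probe sets. The median difference was −0.33 within replicates 1 to 10, 0.07 within 11 to 20 and 0.20 without the 5 arrays, where Tpi1 had 0.26, and no candidate passed at q under 0.05 in these fits. Dcn passed without the 5 arrays once the first component was a covariate, at −0.63.

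**Figure D5:**
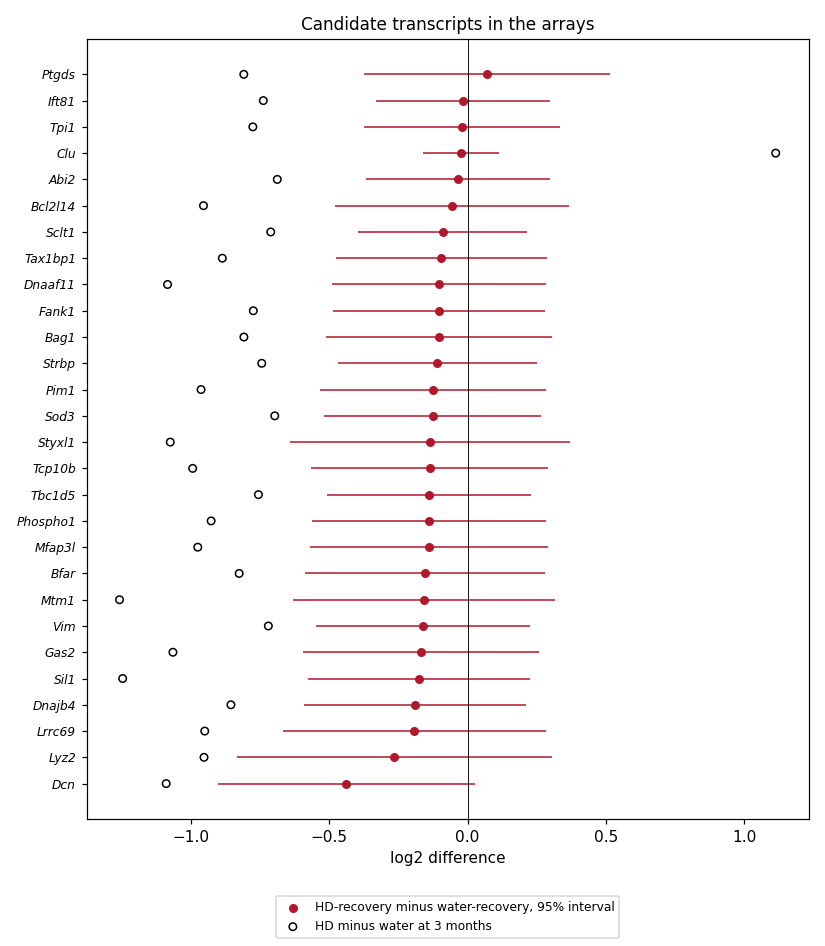
Log2 difference (x axis) of 28 candidate transcripts (y axis) after recovery, with 95% intervals (filled, 20 HD-recovery and 18 water-recovery arrays), and at 3 months (open, 19 HD and 20 water arrays). All 28 recovery intervals cross 0 and none reaches the open point of its gene.

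The difference between the recovery and the 3-month contrasts was also tested over all 4 groups. No probe set passed at q under 0.05 (limma, 0%), the smallest q was 0.46, and 987 had an unadjusted p under 0.05 (3.38%). The named genes with the smallest p were Rps6ka5, a stress-activated kinase (0.35, SE 0.08), Clu (−1.14, SE 0.26), Spsb3 (0.42, SE 0.10), Wdr7 (0.53, SE 0.13) and Ctxn1 (0.59, SE 0.15). Each was among the 138 altered at 3 months, so these values are a description, and after recovery their differences ran from −0.05 to 0.08. By the labels, the difference of the contrasts for Spata19 was 0.00 (SE 0.39) and for Tnp1 0.04 (SE 0.35), intervals too wide to set the times apart. Without the arrays that stood apart in all 4 groups, 4 HD arrays and 1 water array among them, 16591 probe sets passed this test. With array weights 9833 passed. In the fit without those arrays 13886 had an unadjusted p under 0.05, fewer than passed, because Storey's q scales with the estimated share of unaltered probe sets.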

How the data were processed

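Large RNA from the sperm of 77 rats was hybridised to Affymetrix rat gene arrays, 1 array per rat. The authors deposited log2 values for 29214 probe sets, which ran from 2.51 to 14.6, and how they were normalized is not given in the sources used here. Arrays have no counting depth, so precision is set by their number and by the spread between rats.

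Groups came from the labels. The 20 HD-recovery and 18 water-recovery arrays were compared per probe set with limma 3.58.1 (lmFit and eBayes, R 4.3.3) and Storey q-values over all probe sets at 0.05, since the study's threshold was a q-value. The difference from the 3-month contrast used all 4 groups. Array measures were compared by permutation (100000 resamples). The limma and q-value steps were checked on simulated data with noise independent between probe sets. The variation that probe sets share across arrays was not part of that check. An array stood apart when its median correlation within its group lay over 3 scaled median absolute deviations below the group's median. Symbols came from the platform's annotation, updated to RefSeq by gene ID: 323 probe sets had several symbols and 13581 none, and none of these is named.

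Named genes were, among those with 1 symbol other than LOC and RGD names, the 10 higher and 10 lower with the smallest p, the 5 of each with the largest difference, the candidates, up to 4 members of each list with the smallest p, the 5 with the smallest interaction p, and the 5 at each end of the correlation with the first component. Odf1, Prm1 and Cd52, high members of their lists, fall outside this rule and were chosen after their values were seen. The members and gene lists were chosen with earlier results of these data known. Alternatives were all 4 groups in one fit, array weights, covariates, the number ranges, a replicate block, arrays left out, other scalings, a filter on dim probe sets and other limma settings. Fits combining the removal of arrays with a covariate, and the shares in the 3-month arrays without the arrays that stood apart, were chosen after seeing the data.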

Additional observations from a re-analysis of the deposited data

How the results depend on the processing

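The count of altered probe sets, 0 with all 38 arrays, was also 0 with Benjamini-Hochberg adjustment, all 4 groups in one fit, the first principal component, the replicate number ranges, both of these together, either range alone, centred medians, quantile normalization, the filter on dim probe sets, probe sets with 1 symbol, trended and robust eBayes, and each array left out. It was 527 with array weights, 952 with the leukocyte mean as a covariate, 3834 without the arrays that stood apart, 385 without them and with the first component, 2805 without them and with the number ranges, 279 without the HD-recovery ones alone and 0 without the water-recovery ones alone. In fits of the same kinds the 1318 probe sets with an unadjusted p under 0.05 became 738 with all 4 groups, 4589 with array weights, 2264 with the first component, 5177 with the leukocyte mean, 724 in replicates 1 to 10, 7425 without the arrays that stood apart, 2941 and 6894 without them and with each covariate, 3597 and 2659 without those of 1 group, 2226 with both covariates, 700 after the filter on dim probe sets and 797 with 1 symbol. The last pair tests fewer probe sets, and the cause of the other changes was not tested. Leaving out 1 array gave 1096 to 1941. Same-numbered arrays deviated together in 8 of 18 pairs (r over 0.1), with r from −0.41 to 0.64 and a median of 0.04. For 3 of the 18 water-recovery arrays the HD-recovery array most like it had the same number. Such correlations did not show a pairing of the rats by number and cannot exclude one. With the replicate number as a block 0 passed and 1434 had an unadjusted p under 0.05. The difference between the contrasts, 0, became 16591 without the arrays that stood apart in all 4 groups (13886 at an unadjusted p under 0.05) and 9833 with array weights. Without the arrays of the recovery groups that stood apart, these groups differed in array median by −0.0270, in array SD by 0.0373 and in component score by 18.5. The arrays left out lay toward opposite ends of these measures in each group, so their removal alone widens such differences. In the same setting Tpi1 turned from negative to 0.26. Of 158 named genes, 26 changed sign there, and a change of sign was counted as a reversal only where the unadjusted p was under 0.05 in either fit. The candidates' median was −0.18 to −0.04 with 1 array left out, the ends being without HD-recovery replicates 19 and 9.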
